A study of Mus musculus with 2 samples.

Results

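The 9 genes described here belong to antigen processing. They are Psmb8, Psmb9 and Psmb10, which encode the inducible catalytic subunits of the immunoproteasome, Psme1 and Psme2, which encode the proteasome activator PA28, Tap1 and Tap2, which encode the peptide transporter of the endoplasmic reticulum, Tapbp, which encodes tapasin, and Erap1, which encodes an aminopeptidase of the endoplasmic reticulum. They are 9 of the 32285 genes in the feature lists and were taken by symbol, with earlier results of these data known. RNA was counted in single CD45+ cells, the leukocyte fraction, sorted from spleens of wild-type (WT) mice. All mice had been given 10000 iRBCs (not spelled out in the labels) into the peritoneum as an infection, and spleens were taken on day 5. The Glutoborin group received Glutoborin, a compound about which the labels say nothing more, on days 2 and 4, and the Vehicle group received vehicle on the same days.

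Each group is 1 library, from a number of mice not given in the sources used here. No test across animals can therefore be made and no p-value is given. All intervals are 95% intervals that cover counting error only. UMIs are unique molecular identifiers, each standing for a counted RNA molecule. Of 9646 Glutoborin barcodes (56862506 UMIs) 8901 were kept as cells, and of 8204 Vehicle barcodes (48526451 UMIs) 6492. The limit on mitochondrial UMIs removed 4.07% of the barcodes in the Glutoborin library and 18.5% in the Vehicle library. The libraries shared 24 barcodes, 20 of them kept in both. Cells were grouped by clustering and named from marker genes, so a name such as B-cell-like stands for cells that resemble that type. In all, 11 classes had at least 20 cells in each library and 7 had at least 100 and were compared. The 7 are B-cell-like (5142 Glutoborin and 3518 Vehicle cells), CD4 T-cell-like (1091 and 781), CD8 T-cell-like (1096 and 771), regulatory T-cell-like (156 and 124), NK-cell-like (319 and 237) and monocyte-like cells (207 and 299), and cluster 14 (155 and 125). Cluster 14 stayed unnamed: 5 of 7 markers of type 2 dendritic cells and 3 of 6 of mature dendritic cells (Ccr7, Fscn1 and Il4i1) were detected in at least 20% of its cells. No type 2 marker was among its leading genes, which included Ccnd1, Tbc1d4 and Fscn1, the last on the mature list.

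Proteins in the cytosol are cut by the proteasome, a barrel-shaped protease with paired catalytic subunits. Leukocytes and cells exposed to interferon replace those subunits with the inducible ones and cap the barrel with PA28, which shifts the peptides that are made. TAP pumps peptides into the endoplasmic reticulum, ERAP1 trims their ends, and tapasin bridges TAP to empty MHC class I molecules and helps them to bind peptide. Most of these genes are known targets of interferon signalling.

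Tap1, Psmb9, Psmb8 and Tap2 lie side by side in the MHC region of chromosome 17 (GRCm38, GENCODE release M21). Psmb9 (chr17:34181987-34187764, minus strand) and Tap1 (chr17:34187553-34197225, plus strand) are divergent and, in this annotation, overlap at their first ends. Psmb8 (chr17:34197721-34201454, plus strand) begins 495 bases after Tap1 ends, and Tap2 (chr17:34203527-34216321, plus strand) follows after 2072 bases. Tapbp lies elsewhere on the same chromosome (chr17:33915899-33929292, plus strand). Psme1 (chr14:55578123-55581529, plus strand) and Psme2 (chr14:55587441-55591113, minus strand) lie close together on chromosome 14, with Emc9 between them. Psmb10 is at chr8:105935735-105938444 (minus strand) and Erap1 at chr13:74639568-74693201 (plus strand). Whether counting used strand was not stated in the sources used here. How reads in an overlap on opposite strands were assigned is therefore not known from them.

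Promoter windows of 300 bases (250 before the start site and 50 from it on, RefSeq, GRCm38.p6) were found for 8 of the 9 genes, with 2 windows for Psme2. There was none for Tap2. The windows were searched on both strands for the core of the interferon-stimulated response element (GAAA, any 2 bases, GAAA) and the gamma-activated site (TTCNNNGAA). They were also searched for the GC box (GGGCGG) and the kB site by name. Within a window no match overlapped another. The response element core was found in the windows of 2 genes, Psme1 and Erap1, and in 3.45% of all 32544 windows. The gamma-activated site was found for 1 gene, Psmb8, and in 8.33% of all windows. No window of these genes held a kB site, against 8.49% of all windows. The GC box was found for 6 genes and in 35.9% of all windows. For Tap1 and Psmb9 it is the same box (chr17:34187380-34187385). A match describes the letters and shows no binding. The windows of Tap1 and Psmb9 share 275 bases, with 225 bases between the start sites. So 1 stretch of DNA serves as the window of a transporter and of a protease subunit. These RefSeq start sites leave the genes apart, whereas their GENCODE spans overlap. Shown are the shared window on the Tap1 strand with the GC box in capitals (chr17:34187306-34187605, plus strand), the Psmb8 window with the gamma-activated site in capitals (chr17:34197945-34198244, plus strand), and the Psme1 (chr14:55578244-55578543, plus strand) and Erap1 windows (chr13:74639603-74639902, plus strand) with the response element core in capitals. In Psme1 the core begins 9 bases after the start site, and in Erap1 it spans the start site.
Tap1: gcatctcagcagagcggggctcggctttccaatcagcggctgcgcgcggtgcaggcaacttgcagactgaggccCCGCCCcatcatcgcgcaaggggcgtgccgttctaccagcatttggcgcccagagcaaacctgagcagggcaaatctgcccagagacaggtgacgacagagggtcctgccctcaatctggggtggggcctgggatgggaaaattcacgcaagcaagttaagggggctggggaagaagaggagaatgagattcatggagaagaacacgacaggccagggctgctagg
Psmb8: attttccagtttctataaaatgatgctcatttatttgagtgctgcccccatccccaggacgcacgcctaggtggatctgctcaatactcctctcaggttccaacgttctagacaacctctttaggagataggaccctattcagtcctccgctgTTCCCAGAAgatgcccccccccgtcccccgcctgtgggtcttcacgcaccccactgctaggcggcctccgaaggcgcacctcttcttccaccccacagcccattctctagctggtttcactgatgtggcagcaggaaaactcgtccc
Psme1: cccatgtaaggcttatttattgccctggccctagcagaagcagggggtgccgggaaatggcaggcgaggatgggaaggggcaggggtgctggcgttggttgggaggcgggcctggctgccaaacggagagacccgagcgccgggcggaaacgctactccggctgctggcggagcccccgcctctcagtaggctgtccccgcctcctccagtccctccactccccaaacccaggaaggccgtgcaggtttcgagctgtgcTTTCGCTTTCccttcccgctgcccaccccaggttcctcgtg
Erap1: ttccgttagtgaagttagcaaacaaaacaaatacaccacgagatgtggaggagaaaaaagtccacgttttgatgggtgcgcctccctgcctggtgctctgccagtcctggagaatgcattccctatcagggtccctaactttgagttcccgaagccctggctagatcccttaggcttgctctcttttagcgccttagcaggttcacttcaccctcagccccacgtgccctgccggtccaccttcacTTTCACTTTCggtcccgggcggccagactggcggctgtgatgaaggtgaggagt

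The first question is where the 9 genes are on in the infected spleen. UMIs of a gene were summed over the cells of a class and divided by all UMIs of the class, which gives CPM (UMIs per 1000000). All 9 genes were counted in all 11 classes of the Glutoborin library. In the Vehicle library all were but Erap1, which had 0 UMIs in its 22 neutrophil-like cells. That count allows up to 45.0 CPM by a limit of 3 counts, and up to 55.3 CPM by the exact Poisson interval. The spread of a gene over classes was moderate in both libraries, from 1.85-fold (Psmb8, Vehicle) to 4.78-fold (Tap2, Vehicle, where the lowest value rests on 3 UMIs), leaving out Erap1.

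Psmb8, the subunit beta5i with chymotrypsin-like activity, was highest in regulatory T-cell-like cells, at 1005 CPM (939 to 1074) in the Glutoborin and 1095 CPM (1023 to 1172) in the Vehicle library. Cluster 14 followed at 849.7 and 1087 CPM, and in Vehicle its interval overlapped that of the regulatory T-cell-like cells. Red pulp macrophage-like cells were lowest, at 432 and 593 CPM. Psmb9, the subunit beta1i, was highest in cluster 14 (478 and 615 CPM) and lowest in NK-cell-like cells (255 and 273 CPM). Psmb10, the subunit beta2i, was highest in monocyte-like cells (333 and 439.6 CPM) and lowest in neutrophil-like cells (110.0 and 105 CPM). Both PA28 genes were highest in cluster 14, Psme1 at 796 and 909 CPM and Psme2 at 634 and 913 CPM, and lowest in neutrophil-like cells. The interval of the highest class overlapped that of the next for Psmb10 and Psme1 in both libraries, and for Psmb9 and Psme2 in Glutoborin. For all of these genes the interval of the lowest class overlapped that of the class before it, except for Psme1 in Glutoborin. The lowest Psmb10 value in Vehicle rests on 7 UMIs.

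Tap1 was highest in monocyte-like cells (323 CPM in Glutoborin and 373 CPM in Vehicle) and low in NK-cell-like cells (141 and 159.6 CPM). Tap2 was highest in regulatory T-cell-like cells (188 and 215 CPM), with an interval that overlapped that of the next class in both libraries. In this ranking it did not follow its partner in the transporter. Of the UMIs of the pair, Tap1 made up 74.6% in Glutoborin and 73.4% in Vehicle monocyte-like cells, but 55.9% and 57.5% in regulatory T-cell-like cells. Within each of the 7 compared classes, the Tap1 share had overlapping intervals in the libraries. Tapbp was highest in plasmacytoid-dendritic-like cells, at 478 CPM (396 to 572) in Glutoborin and 515 CPM (431 to 611) in Vehicle. In Glutoborin its interval there lay above that of the next class, whereas in Vehicle monocyte-like cells (509 CPM) overlapped it. Erap1 had the fewest UMIs of the 9 in all kept cells, at 8.10 to 45.5 CPM per class in Glutoborin and up to 78.5 CPM in Vehicle.

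**Figure D1:**
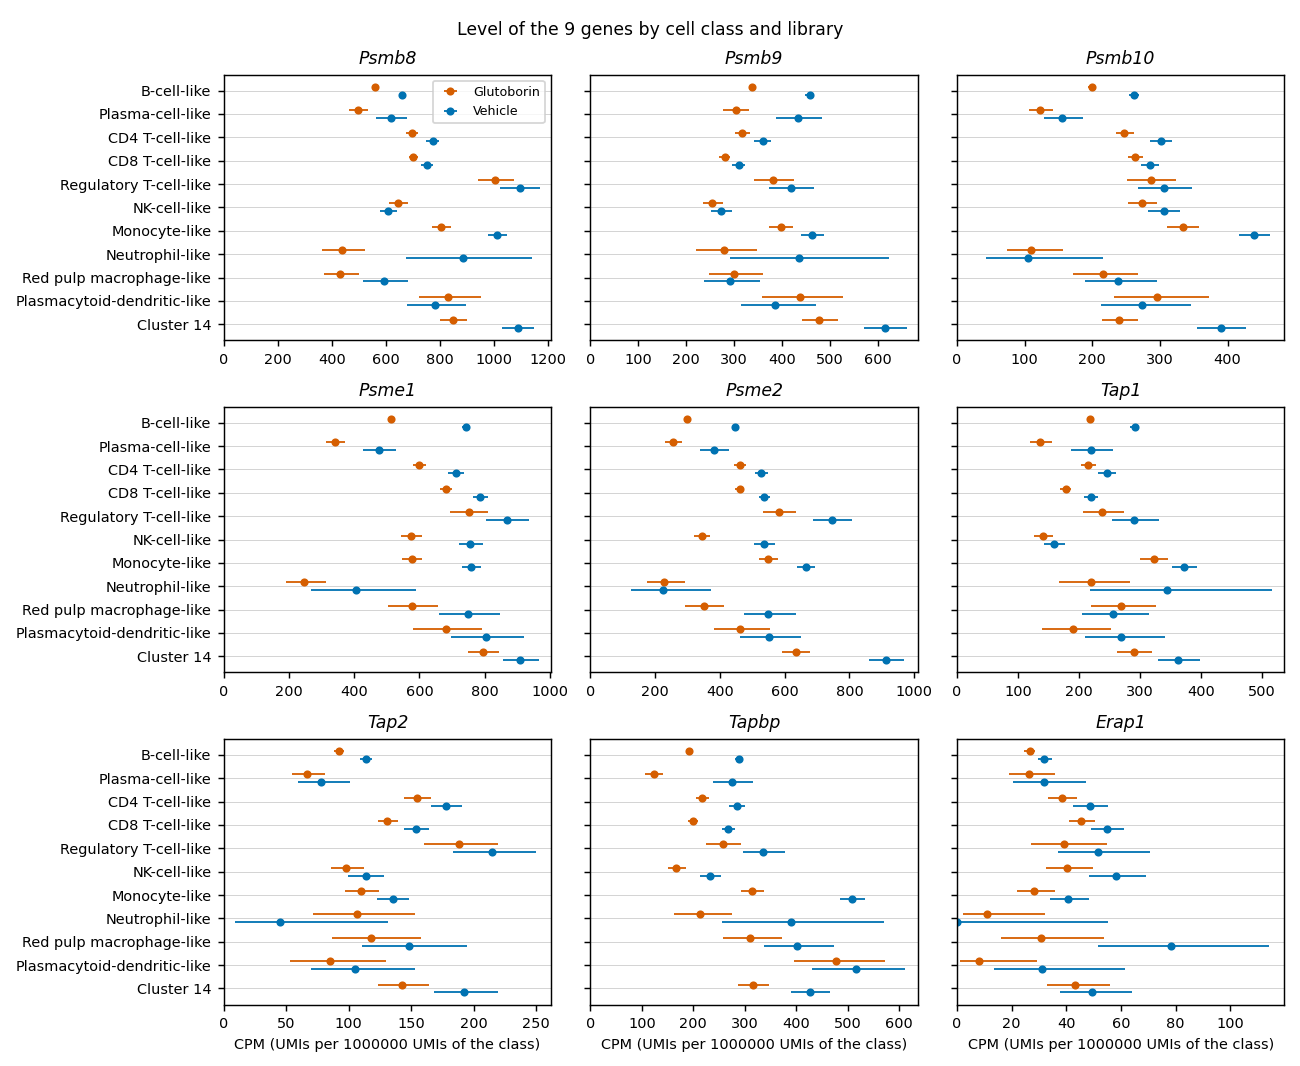
Level of each gene in CPM (x axis, from 0) in 11 cell classes (y axis) with Glutoborin drawn above Vehicle, points with 95% exact Poisson intervals, 1 library each. In B-cell-like cells all 9 genes lie lower in Glutoborin, and Psmb8 is highest in regulatory T-cell-like cells of both libraries.

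The second question is how the genes differ between Glutoborin and Vehicle. As a group the 9 genes were modestly lower with Glutoborin in all 7 classes. Their summed level in B-cell-like cells was 2436 CPM in Glutoborin and 3292 CPM in Vehicle, 1.35-fold lower (log2 ratio of Glutoborin over Vehicle -0.43, interval -0.45 to -0.42). The log2 ratio of the sum was -0.38 in cluster 14, -0.36 in monocyte-like, -0.26 in NK-cell-like, -0.22 in CD4 T-cell-like, -0.21 in regulatory T-cell-like and -0.19 in CD8 T-cell-like cells, and each interval lay below 0. Of 63 values of a gene in a class, 62 were below 0, the exception being Psmb8 in NK-cell-like cells. The median log2 ratio of all genes with at least 50 UMIs lay between -0.04 and 0.02 in the 7 classes.

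Few of these differences were large. In B-cell-like cells 2 of the 9 genes, Psme2 and Tapbp, were at least 1.5-fold lower, where 3.27% of all 10623 genes were. None of the 9 was when immunoglobulin, mitochondrial and ribosomal genes were left out of the class total (share of all genes not given). There was 1 such gene in monocyte-like cells (Tapbp, against 6.22% of all genes), 1 in NK-cell-like cells (Psme2, against 7.24%) and 1 in cluster 14 (Psmb10, against 7.05%). There was none in CD4 T-cell-like (2.58%), CD8 T-cell-like (2.82%) or regulatory T-cell-like cells (4.74%), and none of the 9 was 1.5-fold higher in any of the 7 classes. Of all genes, 2.45% were that much higher in B-cell-like, 2.4% in CD4 T-cell-like, 1.9% in CD8 T-cell-like, 2.49% in regulatory T-cell-like, 6.75% in NK-cell-like and 3.79% in monocyte-like cells, and 5.09% in cluster 14. Judged by counting intervals wholly below 0, the genes numbered 9 of 9 in B-cell-like cells, where 15.7% of all genes had such an interval. The number was also 9 in CD4 T-cell-like (8.6%), CD8 T-cell-like (12.1%) and monocyte-like cells (12.1%). It was 8 in cluster 14 (10.3%) and 4 in both NK-cell-like (13.8%) and regulatory T-cell-like cells (6.05%). None of the 9 had an interval wholly above 0 in any of the 7 classes. With cells thinned to 2000 UMIs, however, Psmb8 in NK-cell-like cells had one (0.26, 0.027 to 0.49). Thinning also put 3 ratios of regulatory T-cell-like cells above 0, at 0.0095 for Psmb9, 0.054 for Psmb10 and 0.20 for Erap1, with intervals that spanned 0. Of all genes, 16.7% had one in B-cell-like, 6.65% in CD4 T-cell-like, 5.22% in CD8 T-cell-like, 3.73% in regulatory T-cell-like, 12.9% in NK-cell-like and 10.8% in monocyte-like cells, and 7.29% in cluster 14. The classes come from the same 2 libraries and are not independent of each other.

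**Figure D2:**
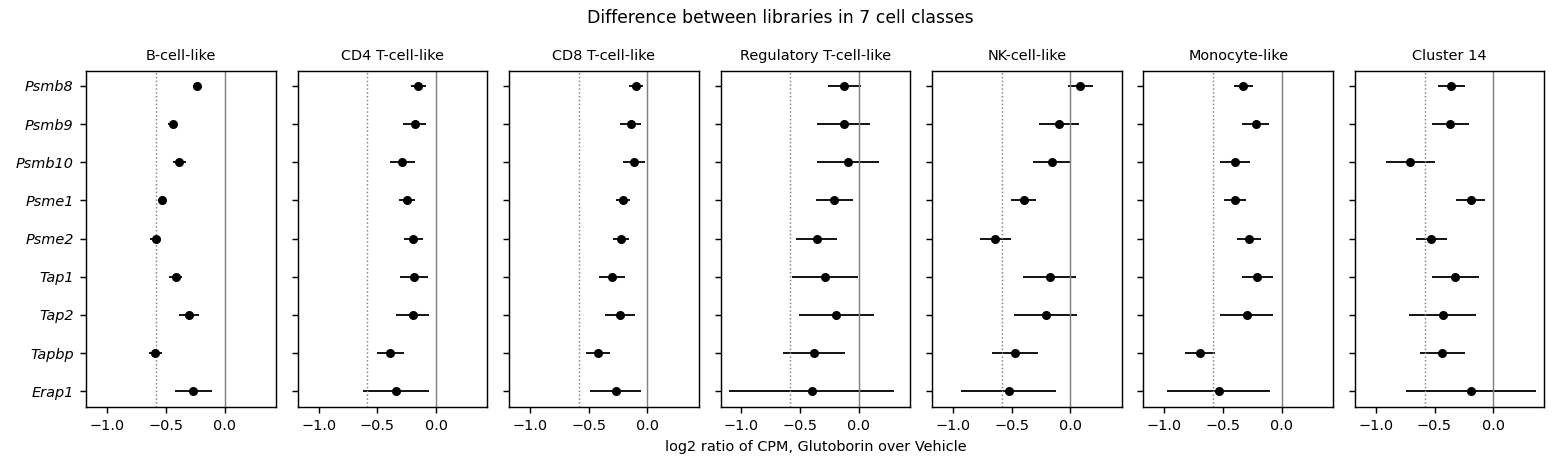
Log2 ratio of CPM, Glutoborin over Vehicle (x axis), for the 9 genes (y axis) in 7 classes, with 95% intervals from counting error. The solid line marks no difference and the dotted line 1.5-fold lower. All points but Psmb8 in NK-cell-like cells lie left of 0.

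Among the catalytic subunits, Psmb9 had 338 CPM in Glutoborin and 458 CPM in Vehicle B-cell-like cells (log2 ratio -0.44, -0.48 to -0.40). Psmb10 had 199.8 and 261 CPM there (-0.39, -0.44 to -0.33). Psmb8 had 561 and 659 CPM (-0.23, -0.27 to -0.20), the smallest difference of the 3. The intervals of Psmb8 and of the other two did not overlap. In CD8 T-cell-like cells the 3 subunits differed little, with ratios of -0.10 for Psmb8, -0.14 for Psmb9 and -0.11 for Psmb10. In NK-cell-like cells Psmb8 had 646 CPM in Glutoborin and 609 CPM in Vehicle (0.09, -0.02 to 0.19). Among the compared classes, the largest difference of a subunit was that of Psmb10 in cluster 14, with 239 CPM in Glutoborin and 390 CPM in Vehicle (-0.71, -0.92 to -0.50).

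The PA28 genes differed more than the subunits in B-cell-like cells. Psme1 had 511 CPM in Glutoborin and 742 CPM in Vehicle (-0.54, -0.57 to -0.50), and Psme2 297 and 447 CPM (-0.59, -0.63 to -0.54). In NK-cell-like cells Psme2 had 345 and 537 CPM (-0.64, -0.77 to -0.51) and Psme1 575 and 756 CPM (-0.40, -0.50 to -0.29). The pair did not always move in step. Psme1 made up 55.7% of the pair's UMIs in Glutoborin and 49.9% in Vehicle in cluster 14, and 62.5% and 58.5% in NK-cell-like cells, with intervals that did not overlap in either class. Psme2 has a near copy, Psme2b on chromosome 11, which had 1220 UMIs in Glutoborin and 1508 in Vehicle, so the split of reads between these genes is uncertain. The more distant activator gene Psme3, for PA28 gamma of the nucleus, had 43.3 and 49.8 CPM in B-cell-like cells (-0.20, -0.33 to -0.08).

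Tapbp had an interval below 0 in each of the 7 classes. It had 314 CPM in Glutoborin and 509 CPM in Vehicle monocyte-like cells (-0.70, -0.82 to -0.57) and 192 and 288 CPM in B-cell-like cells (-0.59, -0.64 to -0.53). Its median log2 ratio over the 7 classes was -0.43, the lowest of the 9 genes. Tap1 had 218 and 291 CPM in B-cell-like cells (-0.42, -0.47 to -0.36) and Tap2 92.3 and 114 CPM (-0.31, -0.39 to -0.22). Erap1 had 26.6 CPM in Glutoborin and 32.0 CPM in Vehicle B-cell-like cells (-0.27, -0.43 to -0.11). Among the 7 compared classes its lowest ratio was -0.54 (-0.98 to -0.10) in monocyte-like cells, with NK-cell-like cells close at -0.52.

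Monocyte-like cells had the lowest Tapbp ratio of the 7 classes, and their other genes lay closer to 0. Psmb8 had 805 CPM in Glutoborin and 1012 CPM in Vehicle (-0.33, -0.41 to -0.25), and Psme1 576 and 758 CPM (-0.40, -0.49 to -0.30). Psmb9 had 397 and 464 CPM (-0.22, -0.34 to -0.11) and Tap1 323 and 373 CPM (-0.21, -0.34 to -0.08). With classes taken from marker UMIs instead of clusters, the Tap1 ratio was 0.038 (-0.16 to 0.24). Of the 9 genes Tapbp also had the lowest ratio in CD4 and in CD8 T-cell-like cells. Tapbp had 217 CPM in Glutoborin and 285 CPM in Vehicle CD4 T-cell-like cells (-0.39, -0.50 to -0.28), and 199.7 and 268 CPM in CD8 T-cell-like cells (-0.42, -0.52 to -0.32). Tap1 had 178 and 219.6 CPM in CD8 T-cell-like cells (-0.30, -0.41 to -0.19). In regulatory T-cell-like cells, where Psmb8 is highest, it had a ratio of -0.12 (-0.26 to 0.01), and Psme2 had 581 and 746 CPM (-0.36, -0.53 to -0.18).

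The 4 classes with fewer cells are given as values. In plasma-cell-like cells, which make and secrete antibody, Tapbp had 123 CPM in Glutoborin and 275 CPM in Vehicle (-1.17, -1.46 to -0.88) and Tap1 137 and 219.7 CPM (-0.68, -0.98 to -0.38). In neutrophil-like cells, 62 in Glutoborin and 22 in Vehicle, Psmb8 had 436 and 885 CPM (-1.02, -1.48 to -0.54). In red pulp macrophage-like cells, 83 and 78, Psme2 had 349 and 549.3 CPM (-0.65, -0.98 to -0.33), while Tap1 had 269.8 and 256 CPM (0.08, -0.35 to 0.50). T cell markers were also detected in that class. In plasmacytoid-dendritic-like cells, 25 in each library, the sum of the 9 genes had 3468 and 3717 CPM (-0.10, -0.23 to 0.03), with an interval that spanned 0.

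Genes beside the 9 on the chromosome were compared in B-cell-like cells. At the edges of the Psmb9 to Tap2 group, the class II genes H2-DMb1 and H2-Ob were not lower in Glutoborin, with 106 CPM in Glutoborin and 102 CPM in Vehicle for H2-DMb1 (0.06, -0.02 to 0.15) and 431 and 376 CPM for H2-Ob (0.20, 0.15 to 0.24). Daxx, whose product is a histone chaperone, ends 308 bases before the GENCODE span of Tapbp on the same strand. Daxx had 37.8 CPM in Glutoborin and 71.6 CPM in Vehicle (-0.92, -1.04 to -0.80). Zbtb22 overlaps that span on the same strand and lies between Daxx and the RefSeq start site of Tapbp (chr17:33919478). The log2 ratio of Zbtb22 was 0.14 (-0.096 to 0.38), with an interval that spanned 0. Rnf31, which encodes a ubiquitin ligase subunit and lies 594 bases from Psme2, had 25.9 and 32.6 CPM (-0.34, -0.49 to -0.18). Emc9 lies between Psme1 and Psme2 and overlaps the end of Psme1 on the opposite strand. It had 5.64 and 3.91 CPM (0.53, 0.12 to 0.95), from 143 and 77 UMIs. Beside Psmb10, Ctrl had 33 and 13 UMIs (0.98, 0.02 to 2.03) and Lcat 4 and 5 UMIs (-0.69, -3.02 to 1.53). Cast, the calpastatin gene that overlaps the far end of Erap1 on the opposite strand, had 64.1 and 54.5 CPM (0.23, 0.12 to 0.35).

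The third question is how the inducible subunits stood against their constitutive counterparts, a measure that does not depend on the class total. Psmb8 takes the place of Psmb5 in the barrel, Psmb9 that of Psmb6 and Psmb10 that of Psmb7. The inducible genes made up most of the UMIs of these 3 pairs in every class of both libraries. In B-cell-like cells the share was 77.1% (76.6 to 77.5%) in Glutoborin and 79.5% (79.1 to 79.9%) in Vehicle, by exact binomial (Clopper-Pearson) intervals. In monocyte-like cells it was 74.2% (73.0 to 75.4%) and 78.8% (77.9 to 79.7%). In NK-cell-like cells the order was turned, with 71.5% (70.0 to 73.0%) in Glutoborin and 67.8% (66.3 to 69.2%) in Vehicle. The intervals overlapped in both CD4 and CD8 T-cell-like cells, in regulatory T-cell-like cells and in cluster 14.

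In NK-cell-like cells the constitutive genes were themselves lower in Glutoborin. Psmb5 had 206 CPM in Glutoborin and 247 CPM in Vehicle (-0.26, -0.45 to -0.08), Psmb6 181 and 218 CPM (-0.27, -0.46 to -0.07) and Psmb7 80.4 and 99.6 CPM (-0.31, -0.60 to -0.02). In monocyte-like cells Psmb5 had 235 and 231 CPM (0.02, -0.14 to 0.18). Plasma-cell-like cells, with 69 Glutoborin and 44 Vehicle cells, had a share of 64.6% (62.6 to 66.6%) in Glutoborin and 75.3% (72.8 to 77.7%) in Vehicle.

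**Figure D3:**
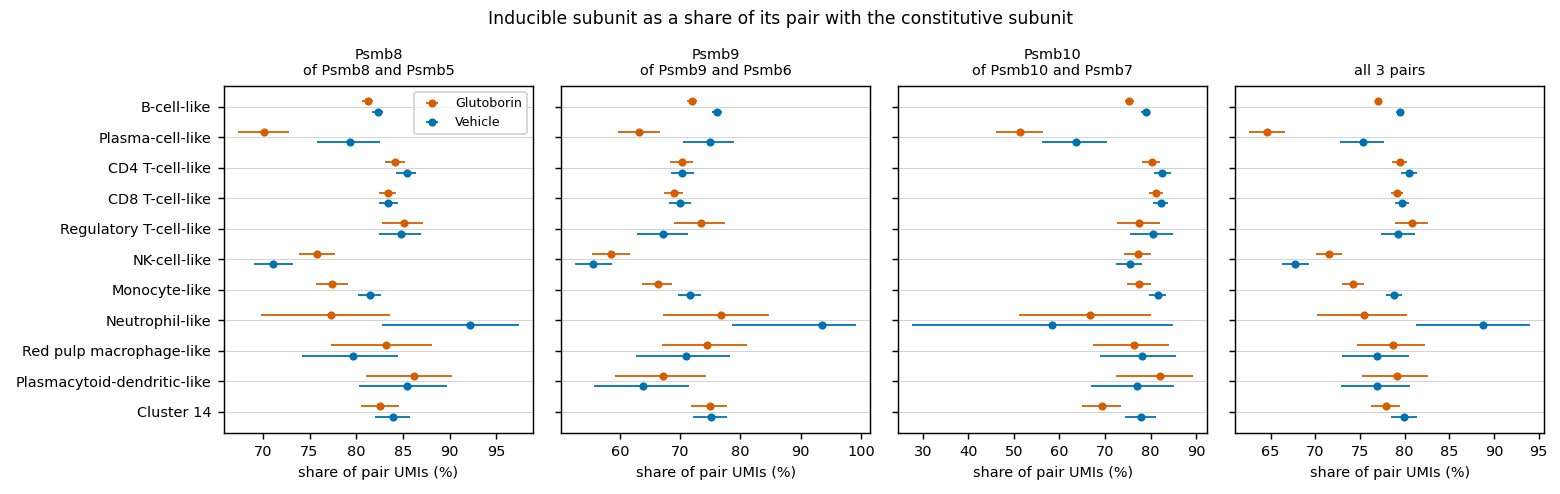
Share of UMIs from the inducible gene of each pair with its constitutive counterpart, and of all 3 pairs (x axes, percent, not starting at 0), in 11 classes with Glutoborin drawn above Vehicle and exact binomial 95% intervals. For all 3 pairs the share is lower in Glutoborin in B-cell-like and monocyte-like cells and higher in NK-cell-like cells.

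The rest of the pathway and of the interferon response was set beside the 9 genes in B-cell-like cells. Of all genes in B-cell-like cells, 3.27% were at least 1.5-fold lower. Of 14 constitutive genes of the 20S barrel none was 1.5-fold lower (median log2 ratio -0.13), and of 20 genes of the 19S cap none was (median -0.07). Intervals lay below 0 for 10 barrel and 6 cap genes, against 15.7% of all genes. They lay above 0 for 1 barrel gene, against 16.7% of all genes. Of 14 MHC class I and loading genes none was 1.5-fold lower (median -0.13), with 9 intervals below 0 and 2 above. B2m, the light chain of class I, had 1847 CPM in Glutoborin and 2165 CPM in Vehicle (-0.23, -0.25 to -0.21). Tapbpl, a relative of tapasin that edits peptides, had 49.2 and 69.3 CPM (-0.49, -0.61 to -0.38). The median of the 9 genes was -0.42, between these lists and the interferon lists. That order did not hold in NK-cell-like cells, where the 9 genes had a median of -0.21. The 14 genes of the barrel had -0.28 (12 intervals below 0) and the 20 of the cap -0.32 (11 intervals below 0). Of all genes in NK-cell-like cells, 13.8% had an interval below 0. In B-cell-like cells all 14 genes of a core interferon list (Isg15, Ifit1 and others) were at least 1.5-fold lower, with a median of -2.16, and so were all 16 of an interferon gamma list (Gbp2, Irgm1 and others), with a median of -1.37.

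Regulators of these genes were also set beside them in B-cell-like cells. Nlrc5, the transactivator of class I genes, had 36.4 CPM in Glutoborin and 67.7 CPM in Vehicle (-0.90, -1.02 to -0.77). Irf1, an interferon-induced transcription factor, had 161 and 246 CPM (-0.61, -0.67 to -0.55). Stat2, which carries the interferon signal to the nucleus, had 47.5 and 107 CPM (-1.16, -1.27 to -1.06). Irf8, Irf9 and Irf2, further factors of the Irf family, had ratios of -0.41, -0.27 and -0.11, with intervals below 0. Nfkb1, Rela and Rfx5 had intervals that spanned 0. Rfxank and Rfxap, subunits of the RFX complex that binds class I and class II promoters, were higher, with ratios of 0.30 (0.058 to 0.54) and 0.18 (0.0093 to 0.35).

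The fourth question is how the 9 genes vary with the interferon state of the single cell. Each cell was thinned to 2000 UMIs and cells were split by UMIs of the core interferon list, which holds none of the 9. The bins are ranges and not cell types. Of the B-cell-like cells of the Glutoborin library, 56.7% had 0 interferon UMIs and 3.44% had 4 or more, against 17.3% and 28.6% in Vehicle. The summed level of the 9 genes went up over the bins of 0, 1, 2 to 3 and 4 or more UMIs in both libraries. It was 2290, 2482, 2845 and 3337 CPM in Glutoborin and 3001, 3168, 3354 and 3738 CPM in Vehicle.

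In B-cell-like cells the sum was lower in Glutoborin within each bin. The log2 ratio was -0.39 (-0.44 to -0.34) in cells with 0 interferon UMIs, -0.35 with 1, -0.24 with 2 to 3 and -0.16 (-0.25 to -0.07) with 4 or more. In the bin of 0, Psme2 had 268 CPM in Glutoborin and 409 CPM in Vehicle (-0.61, -0.76 to -0.46), and Tap1 205 and 287 CPM (-0.48, -0.66 to -0.31). In the bin of 4 or more, with 175 Glutoborin and 988 Vehicle cells, Psme1 was the 1 gene of the 9 with an interval below 0 (-0.31, -0.52 to -0.11). Between the lowest and the highest bin, the log2 ratio of the sum was 0.54 (0.46 to 0.63) in Glutoborin and 0.32 (0.26 to 0.37) in Vehicle. For Psmb9 that ratio was 0.65 (0.42 to 0.88) in Glutoborin and 0.58 (0.42 to 0.74) in Vehicle. In CD4 T-cell-like cells the ratios of the sum over the 4 bins were -0.18, -0.11, -0.08 and -0.03, and the interval lay below 0 in the bin of 0 UMIs and spanned 0 in the other 3. In monocyte-like cells with 4 or more interferon UMIs, 116 in Glutoborin and 272 in Vehicle, the ratio was -0.34 (-0.46 to -0.23). The other 3 monocyte bins had intervals that spanned 0. Over the 4 bins the ratios were -0.18, -0.11, -0.06 and -0.06 in CD8 and -0.73, -0.19, 0.05 and 0.03 in regulatory T-cell-like cells. Both had an interval below 0 only in the bin of 0 UMIs. NK-cell-like cells had -0.20, -0.23, -0.21 and 0.27, with intervals that spanned 0 in the bins of 2 to 3 and 4 or more. In cluster 14 the ratios were -0.47, -0.52, -0.35 and -0.21, and the first interval spanned 0. A cell with 0 UMIs after thinning may still express the list, and how far this sets the differences within bins was not tested.

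**Figure D4:**
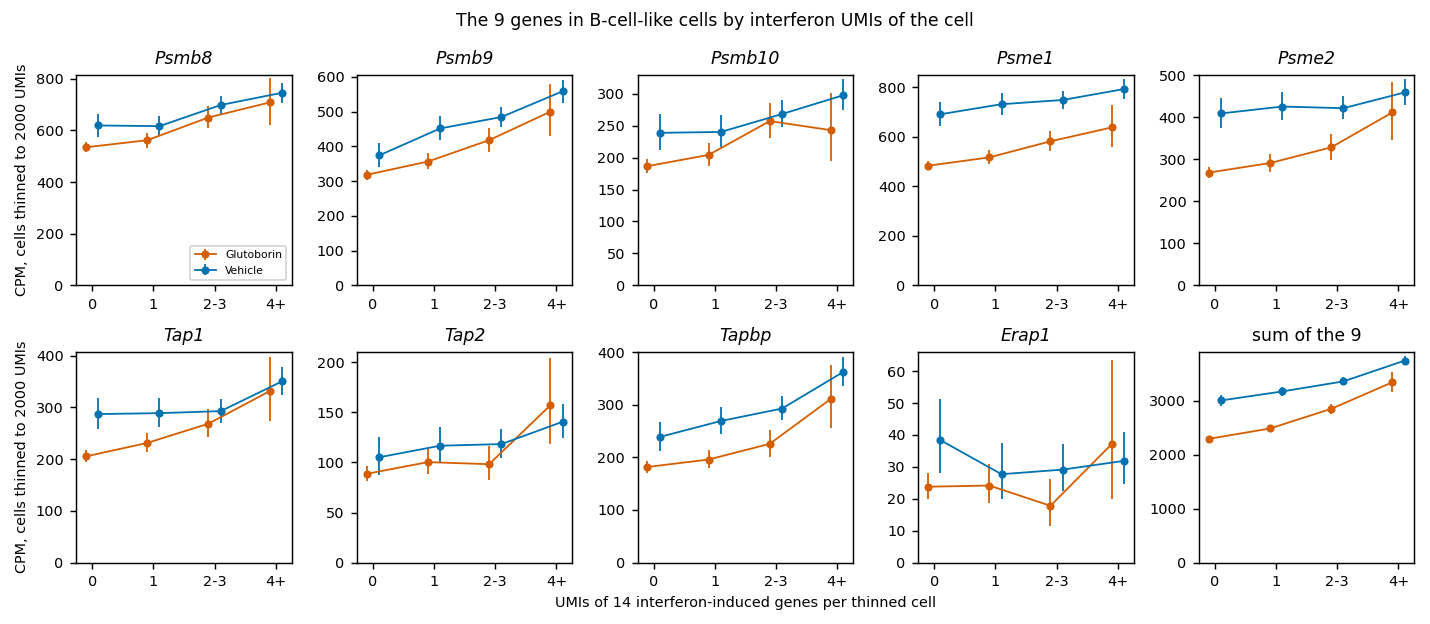
CPM of each of the 9 genes and of their sum (y axes, from 0) in B-cell-like cells thinned to 2000 UMIs, by the cell's UMIs of 14 interferon-induced genes (x axis), with 95% exact Poisson intervals. The sum is lower in Glutoborin in all 4 bins, and the libraries lie closest in the bin of 4 or more, at 3337 CPM in Glutoborin and 3738 CPM in Vehicle.

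The libraries also differed in how B-cell-like cells spread over clusters. Cluster 4, led by Pkib, Serpina3g, Pml and Socs1, held 5.93% of the Glutoborin and 26.6% of the Vehicle B-cell-like cells, and its summed level was the highest of the 10 B-cell-like clusters in both libraries, at 3315 and 3833 CPM. Even so, the sum was lower in Glutoborin in all 10 B-cell-like clusters with at least 100 cells in each library, with log2 ratios from -0.47 (cluster 13) to -0.21 (cluster 4) and intervals below 0. With clusters weighted alike in both libraries, the ratio in B-cell-like cells was -0.35, against -0.43 without weighting. Over all 7 classes there were 20 such clusters, and each had a sum below 0 with an interval below 0. The smallest difference was that of the CD8 T-cell-like cluster T6, with 2714 CPM in Glutoborin and 2911 CPM in Vehicle (-0.10, -0.19 to -0.01).

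**Figure D5:**
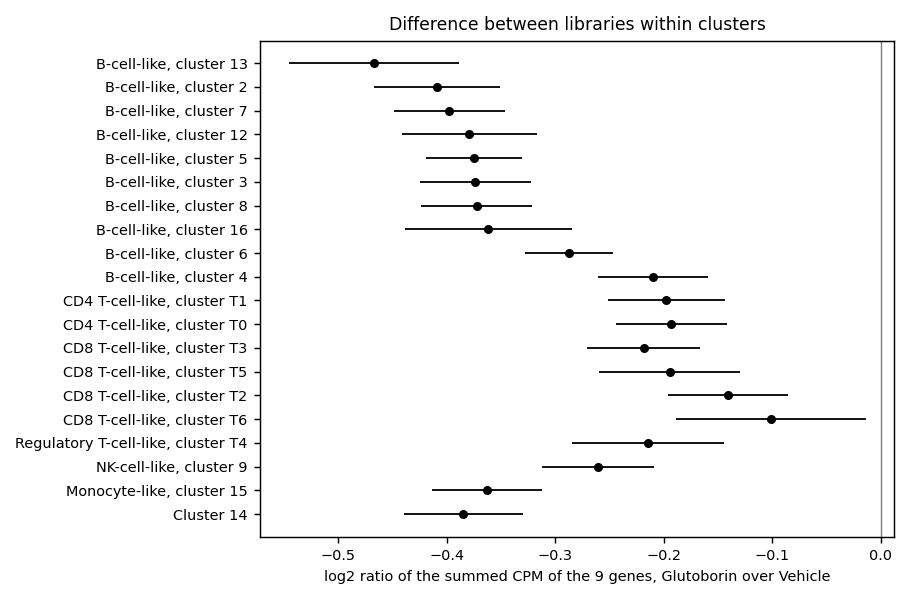
Log2 ratio of the summed CPM of the 9 genes, Glutoborin over Vehicle (x axis), in each of 20 clusters with at least 100 cells in each library (y axis), with 95% intervals from counting error. All 20 points lie below 0, from -0.47 to -0.10.

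The difference was also seen as a share of cells with at least 1 UMI after thinning to 2000 UMIs. In B-cell-like cells Psme2 was found in 41.3% (39.9 to 42.7%) of the Glutoborin and 55.5% (53.9 to 57.2%) of the Vehicle cells, against 65.6% and 83.3% before thinning. Tapbp was found in 31.8% (30.5 to 33.1%) and 43.4% (41.8 to 45.1%), against 55.9% and 74.8% before thinning. The thinning left out 59 Glutoborin and 58 Vehicle cells, and the median depth was 4103 and 4741.5 UMIs. No class in these data lacks the 9 genes, so the share that free RNA alone would give is not known.

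Markers of other cell types moved with the groups too. In B-cell-like cells 9 of 10 monocyte markers were lower in Glutoborin, with a summed level of 190 CPM in Glutoborin and 434 CPM in Vehicle, as were all 7 T cell markers (61.9 and 90.2 CPM). In NK-cell-like cells all 8 B cell markers were lower (327 and 603 CPM), and in monocyte-like cells all 7 T cell markers (175 and 376 CPM). No marker of these 4 lists was at 0 in either library. Other lists went the other way. In NK-cell-like cells the monocyte markers summed to 787 CPM in Glutoborin and 671 CPM in Vehicle (3 of 10 lower), and the red pulp macrophage markers to 49.1 and 16.6 CPM (1 of 9 lower), with 1 marker of each list at 0 in Vehicle. In cluster 14 the red pulp macrophage markers summed to 328 and 109.9 CPM (2 of 9 lower). Their part in the differences of the 9 genes was not tested. The barcodes left out for mitochondrial UMIs, 393 in Glutoborin and 1515 in Vehicle, had a summed level of 1715 and 2467 CPM (-0.52, -0.63 to -0.42).

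Across the 22 combinations of class and library, the genes of most similar pattern to each of the 9 by Pearson's r of log2(CPM + 10) were sought among 10397 genes. These r values describe 22 points that come from 2 libraries. Tapbp was most like Irf7 (r = 0.93), Tap1 most like Parp14 (0.92), Tap2 most like Phf11c (0.91) and Erap1 most like Rexo4 (0.91). Psme1 was most like Tapbpl (0.90) and Psme2 most like Psme1 (0.90). Psmb10 was most like Tmem173 (0.88), with Psme2 the third (0.87), Psmb9 most like Rel (0.85) and Psmb8 most like Chrac1 (0.81). Among the 9 themselves, Tap1 and Psmb9 had r = 0.73, Tap1 and Tap2 0.25, and Tap2 and Erap1 0.75.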

How the data were processed

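Single-cell RNA was measured in 2 libraries of CD45+ spleen cells, grouped by the treatment in the labels. The authors deposited raw UMI counts, 1 matrix a library, and the file headers name Cell Ranger 6.1.2. Cell Ranger 6.0.1, Seurat 4.3.0 and mm10 are listed in the submitters' processing notes, with no annotation release given in the sources used here. Kept barcodes had 300 genes and 500 UMIs or more and a mitochondrial share under 10%, and doublets called by Scrublet in each library alone were left out (352 in Glutoborin, 3.80%, and 196 in Vehicle, 2.93%). Both libraries were clustered together with scanpy 1.11.5 without batch correction (2000 variable genes without the 9 genes, interferon, proteasome, class I, cell cycle, antigen receptor, mitochondrial and ribosomal genes, 30 components, 15 neighbours, Leiden resolution 1.5). T cell clusters were clustered again. A class needed at least 3 of its markers in at least 20% of cells, a limit set after the clusters were seen. Besides cluster 14, 445 Glutoborin and 382 Vehicle cells stayed unnamed. A further T cell cluster, T15, led by the interferon-induced genes Rsad2 and Ifit1, got no finer class and held 7 Glutoborin and 61 Vehicle cells. It is not in these counts and not in the CD4 or CD8 T-cell-like values or their interferon bins. What its absence does to those ratios was not tested.

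Levels are summed UMIs over class totals with exact Poisson intervals. Ratios carry the exact interval of a ratio of Poisson counts and shares the Clopper-Pearson interval, computed with scipy 1.17.1 at the 95% level, covering counting error only. Limits beside a 0 are 3 counts of the class total. The ratio code was tested on simulated data. All 9 genes had at least 50 UMIs over both libraries in each compared class. Gene positions are from GENCODE release M21 on GRCm38, where 99.6% of the identifiers were found. The 9 genes, the lists, the markers and the rule for named genes (all 9, list members past 1.5-fold in B-cell-like cells, a few preset genes, chromosome neighbours and the 3 most alike genes) were chosen with earlier results of these data known. Of the peptide trimming list 6 of 7 symbols were found. None was 1.5-fold lower in B-cell-like cells (median -0.14), where 3.27% of all genes were. Nor was any of 8 other activator and assembly genes (median -0.20). Alternatives covered the filters, doublets, resolution, scaling, thinning, classes from marker UMIs without clusters, and leaving out the cells richest in the 9 genes. Regulators under 1.5-fold were named after their values were seen, and part of that list is not reported here.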

Additional observations from a re-analysis of the deposited data

How the results depend on the processing

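The summed log2 ratio of the 9 genes stayed below 0 in all 7 classes under every alternative run: -0.45 to -0.41 in B-cell-like, -0.26 to -0.20 in CD4 and -0.23 to -0.14 in CD8 T-cell-like, -0.30 to -0.17 in regulatory T-cell-like, -0.28 to -0.18 in NK-cell-like and -0.38 to -0.33 in monocyte-like cells, and -0.41 to -0.37 in cluster 14. Some values moved past the counting interval. In B-cell-like cells it was -0.45 with median-of-ratios scaling, -0.45 with cells thinned to 2000 UMIs and -0.41 with class totals without immunoglobulin, mitochondrial and ribosomal genes. In CD8 T-cell-like cells it was -0.15, -0.23 and -0.14 under the same settings. With classes taken from marker UMIs it was -0.26 in CD4 T-cell-like, -0.18 in NK-cell-like and -0.30 in regulatory T-cell-like cells. The number of genes at least 1.5-fold lower in B-cell-like cells was 1, not 2, with a mitochondrial limit of 25%, at resolution 0.8 or with thinned cells, and 0 without immunoglobulin, mitochondrial and ribosomal genes in the total. In monocyte-like cells it was 2, not 1, with the limit of 25%, with doublets kept, with thinned cells, with classes from marker UMIs and without the 10 cells richest in the 9 genes. It was 2 in cluster 14 with thinned cells and 1 in regulatory T-cell-like cells with classes from marker UMIs. The share of all genes that much lower is not given for these settings. These counts are therefore not read as particular to the 9 genes. The inducible share of the 3 pairs with thinned cells was 77.7% in Glutoborin B-cell-like, 80.1% in Glutoborin and 80.5% in Vehicle CD8 T-cell-like, 80.1% in Vehicle monocyte-like and 78.2% in Glutoborin regulatory T-cell-like cells. With classes from marker UMIs it was 78.3% in Glutoborin and 79.2% in Vehicle CD4 T-cell-like, 77.7% and 78.1% in CD8 T-cell-like, and 78.9% in Glutoborin regulatory T-cell-like cells. Tap1 in monocyte-like cells turned to 0.038 with classes from marker UMIs, which held 119 cells in each library. The cause of these shifts was not tested. Leaving out the shared barcodes, an alternative chosen after seeing the data, moved no value past its interval. With a background of at least 10 UMIs in place of 50, the genes 1.5-fold lower in B-cell-like cells were 6.25% of all genes, and with 1 UMI or more in each library 9.27%. Marker classes could not be formed for cluster 14, which has no name. No paired analysis was possible because each group is 1 library. Depth limits the scarce Erap1 and the classes of under 100 cells most.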
